A study of Homo sapiens with 2 samples.

Results

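Molecular chaperones and folding enzymes were examined in BE(2)-C cells, a human neuroblastoma line with amplified MYCN, after knock-down of the long noncoding RNA linc00467. Members were chosen by gene symbol, with earlier results of these data known. Eligible were the heat shock protein families (HSPA, HSPB, HSPD, HSPE, HSPH and HSP90) and the J proteins (DNAJA, DNAJB and DNAJC). The FKBP and PDIA families, the CCT chaperonin subunits and the BAG genes were eligible too. So were HSF1, HSF2, TCP1, CALR, CANX, SDF2, SDF2L1 and HYOU1. Pseudogenes and antisense genes were left out, by symbol or by annotated gene type. The rule found 44 of 16098 named probe sets, which stand for 30 of 14884 genes. Of these genes, 21 encode proteins of the cytosol and nucleus, 6 encode proteins of the endoplasmic reticulum (ER) and 2 encode mitochondrial proteins. The remaining one, HSPB2-C11orf52, is a noncoding readthrough transcript.

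One culture received control siRNA and one received linc00467 siRNA-1, and total RNA was taken from each 48 hours later. Each RNA was measured on 1 Affymetrix HuGene-2_0-st array. The sample labels give RPMI as the medium, whereas the study's methods give Dulbecco's modified Eagle's medium for this line. These are called control cells and knock-down cells. All values are log2 levels of probe sets, as deposited, and every difference is the level with linc00467 siRNA-1 minus the level with control siRNA. With 1 array per condition there was no replicate, no error and no test, and an effect of the siRNA cannot be told apart from any other difference between the 2 cultures or hybridizations. A probe set is described as higher or lower where it differed by at least 1.2 fold, which is 0.26 on the log2 scale, and the study's own cut-off of 1.8 fold is given beside it.

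The 2 arrays had similar distributions, with medians over named probe sets of 5.67 and 5.68. LINC00467 itself, a gene of chromosome 1, measured 6.55 in control cells and 5.67 in knock-down cells, 1.84 fold lower. Of 9 adrenergic neuroblastoma genes listed as markers, 8 were named on the array, and all 8 lay at or above the median level of named probe sets on the mean of both arrays, which was 5.68. In knock-down cells 7 of the 8 measured lower, of which CHGA, DBH and GATA3, at -0.58, -0.41 and -0.30, were past 1.2 fold, and ISL1 was higher at 0.29. Of the 9 named markers of other cell types, VIM, TWIST1 and KRT18 reached the median level, with differences of 0.09, -0.24 and -0.07, whereas FN1, PRRX1, YAP1, CD14, EPCAM and PECAM1 did not. The part of these marker differences in the chaperone values was not tested.

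Chaperones bind unfolded or partly folded proteins and keep them from aggregating while they fold. HSP70 proteins do so in cycles of ATP hydrolysis, which J proteins start and nucleotide exchange factors such as the HSP110 and BAG proteins end, and the small heat shock proteins hold unfolded clients without ATP. In the cytosol the supply of chaperones is raised under stress by HSF1, a transcription factor that unfolded proteins release from inhibition. In the ER it is raised by the unfolded protein response, whose sensors ERN1 (IRE1), EIF2AK3 (PERK) and ATF6 respond to misfolded secretory proteins. Mitochondria keep an HSP70 of their own, mortalin, and the HSP60 chaperonin for imported proteins.

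The annotation used here names only a part of this machinery. Of 118 gene symbols of these families that had been assigned to a compartment, 29 were named, among them 13 of 16 HSP70 and HSP110 genes, 3 of 8 small heat shock genes and 5 of 6 BAG genes. None of 46 J protein symbols, 11 symbols of TRiC chaperonin subunits and their paralogues, 3 HSP90 genes or 5 PDIA genes was named. HSPA8, the constitutive HSP70 of the cytosol, HSPA5 (BiP), the HSP70 of the ER, and HSP90AA1 were therefore not analysed here, and the values below describe the named members only.

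The promoters of 4 of the 6 ER members are shown first because they hold the sequence elements through which the unfolded protein response acts. Those of SDF2 and FKBP7, in which no such element was found, are not printed. The promoter of HSPA6 is added as the only one found with a full match to the heat shock element searched for. RefSeq promoters (assembly GRCh38.p14, 250 bases before to 50 bases after the annotated start) were found for 25 of the 30 genes. BAG4, HSF1, HSPA12B, HSPA14 and HSPB2-C11orf52 had no entry. Each was searched on both strands for the ER stress element, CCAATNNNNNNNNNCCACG, for the second ER stress element, ATTGGNCCACG, and for a heat shock element of alternating units, GAANNTTCNNGAA. None of these matches shares bases with a match of another of the searched motifs. The stretches below end at the base before the start and are written 5′ to 3′ on the strand of the gene, with the matched element in capitals. CALR lies at chr19:12938364-12938608 on the plus strand, CANX at chr5:179698758-179698928 on the plus strand, HYOU1 at chr11:119057206-119057410 on the minus strand, SDF2L1 at chr22:21642094-21642301 on the plus strand and HSPA6 at chr1:161524390-161524539 on the plus strand.
CALR: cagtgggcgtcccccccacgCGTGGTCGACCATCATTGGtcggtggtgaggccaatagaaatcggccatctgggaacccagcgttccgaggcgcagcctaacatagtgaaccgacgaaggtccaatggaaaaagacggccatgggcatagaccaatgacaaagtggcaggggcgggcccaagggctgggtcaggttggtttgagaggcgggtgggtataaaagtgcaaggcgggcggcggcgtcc
CANX: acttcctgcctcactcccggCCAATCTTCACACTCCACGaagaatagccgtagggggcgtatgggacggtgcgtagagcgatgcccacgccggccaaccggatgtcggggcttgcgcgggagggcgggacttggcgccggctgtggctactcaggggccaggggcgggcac
HYOU1: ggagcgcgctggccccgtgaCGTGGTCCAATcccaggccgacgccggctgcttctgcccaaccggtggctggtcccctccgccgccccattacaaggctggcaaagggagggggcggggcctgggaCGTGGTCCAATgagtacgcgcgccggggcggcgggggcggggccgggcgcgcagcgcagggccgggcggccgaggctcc
SDF2L1: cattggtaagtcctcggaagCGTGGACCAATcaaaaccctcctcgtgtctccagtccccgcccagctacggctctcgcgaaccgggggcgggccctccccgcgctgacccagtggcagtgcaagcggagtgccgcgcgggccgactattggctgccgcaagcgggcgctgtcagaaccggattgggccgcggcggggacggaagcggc
HSPA6: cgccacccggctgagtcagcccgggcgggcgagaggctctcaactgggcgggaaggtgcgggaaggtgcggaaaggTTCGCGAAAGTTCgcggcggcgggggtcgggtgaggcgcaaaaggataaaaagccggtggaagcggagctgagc

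An ER stress element of either kind was present in the promoters of 4 of 6 ER genes, 0 of 17 cytosolic genes with a promoter and 0 of 2 mitochondrial genes, against 0.131% of all 35116 RefSeq promoters. The first element alone was found in 0.0769% and the second in 0.0541% of all promoters. CALR and CANX held the first element, from 225 to 207 and from 151 to 133 bases before the start. HYOU1 held the second element at a pair of sites, from 185 to 175 and from 79 to 69 bases before the start, and SDF2L1 held it from 188 to 178. The full heat shock element was found only in HSPA6, from 74 to 62 bases before the start, against 0.49% of all promoters. Heat shock elements with a mismatched unit, or outside these windows, were not searched for. These matches are descriptions of the letters in these windows and not of bound sites.

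Most chaperone probe sets, 90.9%, were within 1.2 fold, as were 81.7% of all named probe sets. Of the 44 probe sets, 3 exceeded their control level by 1.2 fold or more, or 6.82%, while 8.5% of all named probe sets were higher by that much. Only 1 of the 44 was lower, or 2.27%, while 9.78% of all named probe sets were lower. None passed 1.8 fold, which 0.224% of named probe sets passed upwards and 0.578% downwards. The 3 higher members were HSPA14, SDF2 and SDF2L1, and the lower one was HSPB1. The median difference of the 44 was 0.03 and that of all named probe sets was 0.00.

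The members' differences were spread less widely than those of other probe sets, with an SD of 0.17 across members against 0.23 across all named probe sets. Probe sets with higher levels vary more on these arrays, so the 38 members whose mean level reached the median of 5.68 were counted apart. Of these, 7.89% were higher and 2.63% lower, against 10.7% and 13.4% of all named probe sets at such levels. Their SD was 0.17 against 0.26. Probe sets of 1 gene share their source, and 15 of the 44 belong to HSPA1A, HSPA1B and HSPA1L. By gene, with probe sets averaged, 3 of 30 were higher and 1 was lower, or 10% and 3.33%. Of all named genes, 8.56% were higher and 9.72% lower. The SD over the 30 genes was 0.18, against 0.23 over all named genes.

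**Figure D1:**
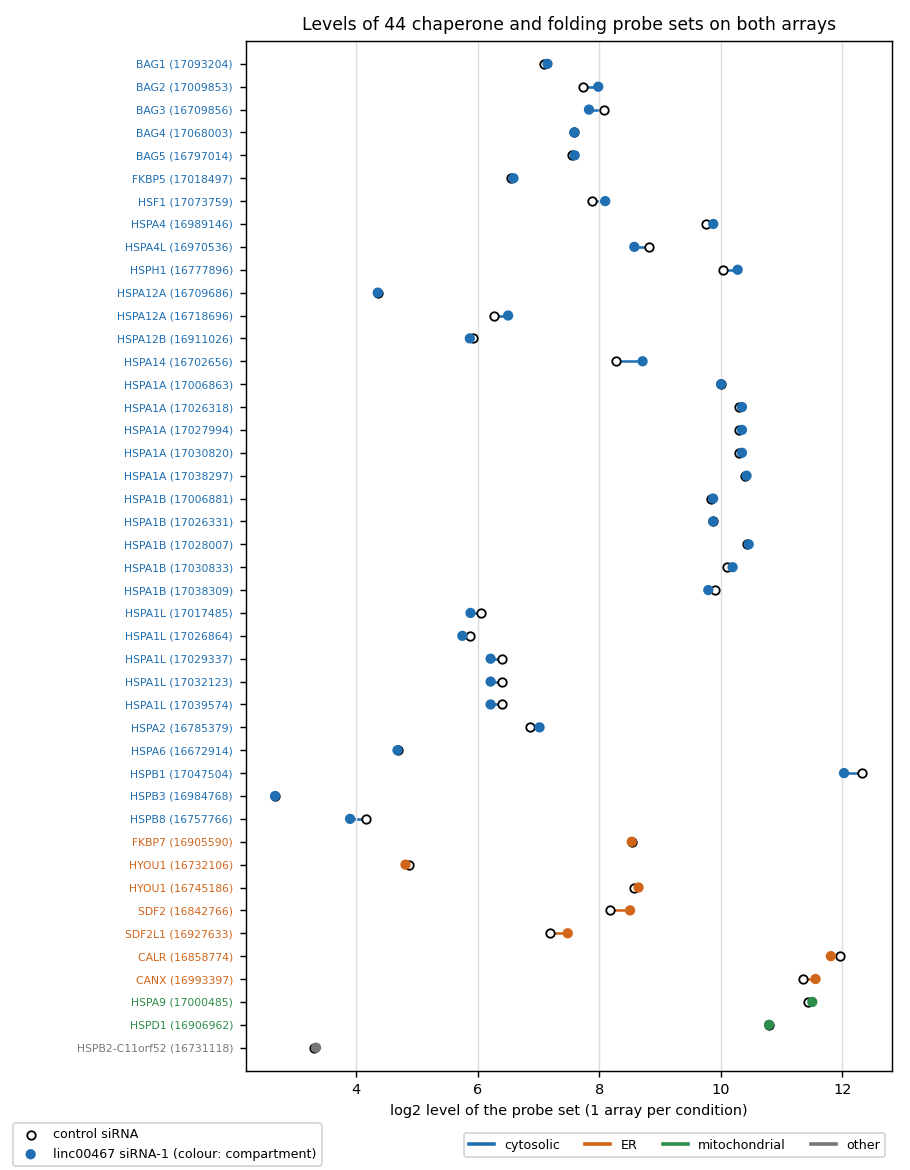
Log2 level (x axis) of each of the 44 probe sets (rows, with the probe set number) on the control siRNA array (open circles) and the linc00467 siRNA-1 array (filled circles), coloured by compartment. The pairs of circles lie close together, and the widest gap is that of HSPA14, from 8.27 to 8.71.

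Among the cytosolic HSP70 genes, HSPA14 stood out as the member with the largest difference. HSPA14 encodes a divergent HSP70 that works with the J protein DNAJC2 on nascent chains at the ribosome. It measured 8.27 in control cells and 8.71 in knock-down cells, a difference of 0.45 or 1.36 fold. It has 1 named probe set, so no second probe set bears on this value.

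The stress-inducible HSP70 genes, whose mRNAs accumulate when HSF1 is active, had nearly the same levels on both arrays. HSPA1A had 5 probe sets with levels between 10.00 and 10.39 in control cells and between 10.00 and 10.42 in knock-down cells. Their differences ran from 0.00 to 0.05, and 3 of the 5 probe sets gave identical values, so that they are not separate measurements. HSPA1B, its neighbour on chromosome 6, encodes a near-identical protein, and probe sets of the pair can bind the RNA of either gene. Its 5 probe sets ran from 9.85 to 10.43 in control cells and from 9.80 to 10.46 in knock-down cells. Their differences lay between -0.11 and 0.09, with 3 above 0 and 2 below, a range of 0.20 within 1 gene. HSPA6, a strictly inducible HSP70 and the gene with the heat shock element printed above, had 4.69 and 4.68, below the median level.

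The third HSP70 gene of that chromosome 6 locus, HSPA1L, which is expressed mainly in testis, was below its control level at all 5 probe sets. Levels lay between 5.88 and 6.40 in control cells and between 5.75 and 6.21 in knock-down cells. Differences ran from -0.19 to -0.13, all within 1.2 fold, and 3 of the 5 probe sets gave identical values here too. HSPA2, another testis-enriched HSP70, measured 6.87 in control cells and 7.02 in knock-down cells, a difference of 0.15. The divergent HSP70 genes HSPA12A and HSPA12B were within 1.2 fold as well. HSPA12A had a difference of 0.23 at the probe set with the higher level, from 6.27 to 6.50, and exactly equal values of 4.35 at the other. HSPA12B had a difference of -0.05, from 5.91 to 5.87.

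The HSP110 genes, which encode nucleotide exchange factors of HSP70, differed in direction among themselves and were all within 1.2 fold. HSPH1 measured 10.05 in control cells and 10.28 in knock-down cells, a difference of 0.23. HSPA4 had a difference of 0.12, from 9.75 to 9.88. HSPA4L had -0.25, from 8.82 to 8.58, which is 1.19 fold lower.

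The BAG genes, which encode further exchange factors of HSP70 and adaptors that link it to degradation, were also within 1.2 fold, with the largest differences on opposite sides of 0. BAG2, which inhibits the chaperone-associated ubiquitin ligase STUB1 (CHIP), measured 7.72 in control cells and 7.98 in knock-down cells. This difference of 0.26, or 1.197 fold, lay just short of 1.2 fold. BAG3, an HSF1 target that directs clients to autophagy, had 8.08 and 7.83, a difference of -0.25. BAG1, BAG4 and BAG5 had differences of 0.06, 0.01 and 0.05.

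The small heat shock genes with a nonzero difference were both below their control levels. HSPB1 (HSP27), an abundant ATP-independent holdase, measured 12.33 in control cells and 12.03 in knock-down cells. The difference of -0.30, or 1.23 fold lower, was the largest negative one of all members. With quantile normalization of the 2 arrays it was -0.24 and no longer past 1.2 fold. It was -0.31 with median centring and -0.35 with a lowess correction, both past 1.2 fold. HSPB8, which forms a complex with BAG3 and HSP70, had 4.16 and 3.90, a difference of -0.26 at levels below the median. HSPB3, a small heat shock protein of muscle, had exactly equal values of 2.66 on both arrays.

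HSF1, the transcription factor of the heat shock response, measured 7.89 in control cells and 8.10 in knock-down cells. This difference of 0.21 was within 1.2 fold. FKBP5, a co-chaperone of HSP90 in steroid receptor complexes, had a difference of 0.04, from 6.54 to 6.59.

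In the ER, both SDF2 genes were higher in knock-down cells. SDF2 and SDF2L1 encode related proteins of the ER lumen that bind BiP co-chaperone complexes. SDF2 measured 8.17 in control cells and 8.51 in knock-down cells, a difference of 0.33 or 1.26 fold. SDF2L1, which the unfolded protein response induces, had 7.18 and 7.48, a difference of 0.30 or 1.23 fold. They lie on chromosomes 17 and 22 and have 1 named probe set each. Among 177 genes with several distinct named probe sets at such levels, the median range of differences within a gene was 0.11. The 90th percentile was 0.35. This range shows how far probe sets of 1 gene disagree on the same 2 arrays. It holds no variation between cultures or hybridizations.

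The lectin chaperones of the calnexin cycle, which fold glycoproteins, differed in opposite directions and within 1.2 fold. CANX, the membrane-bound calnexin, measured 11.36 in control cells and 11.56 in knock-down cells, a difference of 0.21. CALR, the soluble calreticulin, had 11.97 and 11.81, a difference of -0.15. HYOU1, the exchange factor of BiP, had a difference of 0.07 at the probe set with the higher level, from 8.57 to 8.65, and -0.06 at the other, from 4.87 to 4.81. FKBP7, an ER prolyl isomerase, had exactly equal values of 8.53.

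The 4 ER genes with an ER stress element therefore ran from -0.15 for CALR through 0.01 for HYOU1, averaged over its probe sets, and 0.21 for CANX to 0.30 for SDF2L1. Those without an element were SDF2 at 0.33 and FKBP7 at 0.00. Genes with and without the element overlapped.

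Both named mitochondrial members had nearly the same level on both arrays. HSPA9, which encodes mortalin, measured 11.44 in control cells and 11.51 in knock-down cells, a difference of 0.06. HSPD1, which encodes HSP60, had exactly equal values of 10.80 on both arrays. Exactly equal values were present at 4 of the 44 probe sets and at 22.9% of all named probe sets. How equal values arose in the processing was not tested. The readthrough transcript HSPB2-C11orf52 had a difference of 0.03 at low levels, from 3.30 to 3.34.

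**Figure D2:**
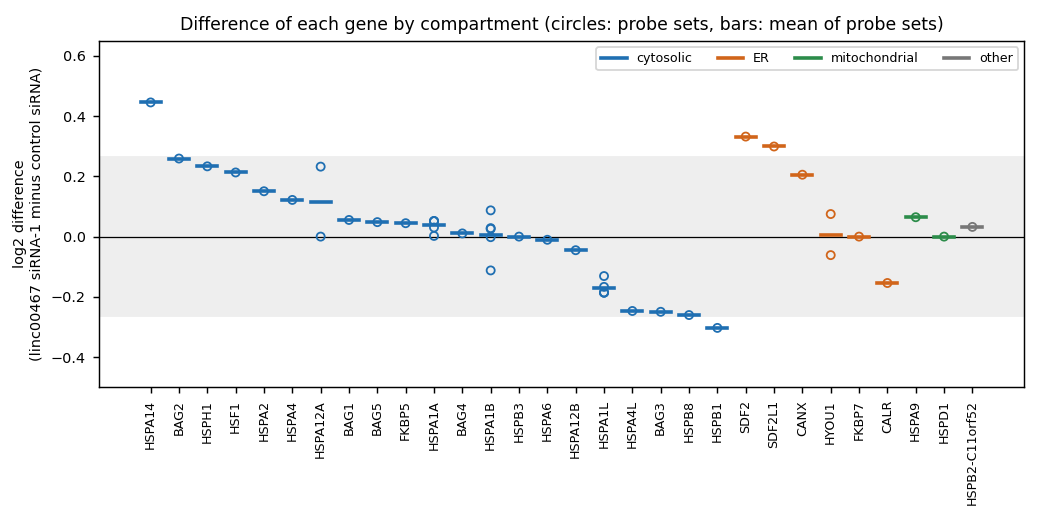
Log2 difference (y axis, linc00467 siRNA-1 minus control siRNA) of the 30 genes, ordered within each compartment. Circles are probe sets, bars are means of a gene's probe sets and the grey band marks 1.2 fold, outside which lie HSPA14, SDF2 and SDF2L1 above and HSPB1 below.

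Set side by side, the compartments overlapped. The median difference was 0.02 over 34 cytosolic probe sets, 0.07 over 7 ER probe sets and 0.03 over the 2 mitochondrial ones. The ER median exceeded the cytosolic one by 0.06, and by 0.03 to 0.11 under the alternatives that were run. The mitochondrial median exceeded the cytosolic one by 0.01. Under the alternatives it lay between 0.01 below and 0.04 above the cytosolic one, so that its direction varied. The alternatives reuse the same 2 arrays and hold no variation between cultures or hybridizations. They therefore settle the direction of neither difference. ER differences ran from -0.15 to 0.33, inside the cytosolic range of -0.30 to 0.45. By at least 1.2 fold, 2 of 7 ER probe sets were higher and 0 lower, while 1 of 34 cytosolic probe sets was higher and 1 lower. These are 28.6% of ER and 2.94% of cytosolic probe sets higher, against 8.5% of all named probe sets, and 0% and 2.94% lower, against 9.78%. At or above the median level, where most members lay, 10.7% of named probe sets were higher and 13.4% lower. Over 7 ER probe sets, 1 probe set more or less moves such a share widely. Without HSPA1A, HSPA1B and HSPA1L the cytosolic median was 0.04 over 19 probe sets, of which 5.26% were higher and 5.26% lower. By gene, 2 of 6 ER genes were higher and 0 lower, and 1 of 21 cytosolic genes was higher and 1 lower. These are 33.3% and 4.76% higher, against 8.56% of all named genes, and 0% and 4.76% lower, against 9.72%.

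**Figure D3:**
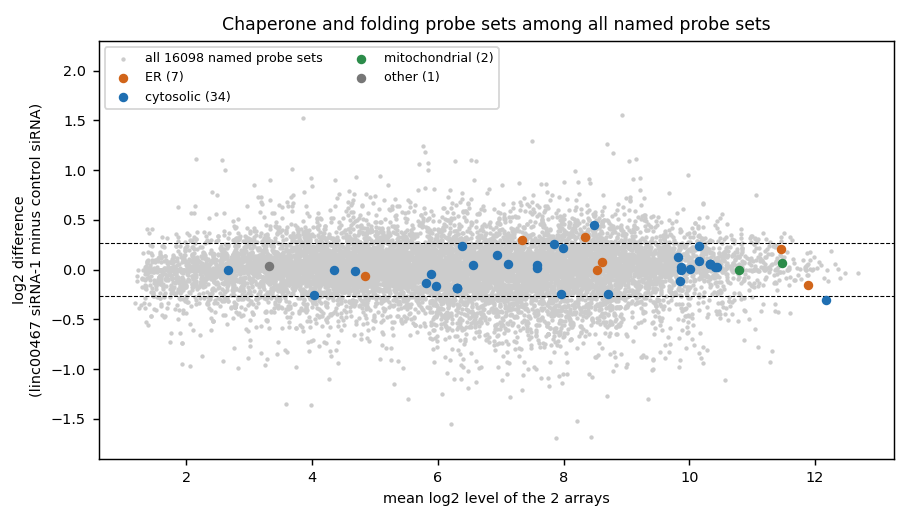
Log2 difference (y axis) against the mean log2 level of the 2 arrays (x axis) for all 16098 named probe sets in grey and the 44 chaperone probe sets in colour, with dashed lines at 1.2 fold. The chaperone probe sets lie between -0.30 and 0.45, while the grey points extend from -1.69 to 1.56.

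Genes that work with these chaperones, but are outside the member rule, were then counted by list. Each count is read against the 8.56% of all named genes that were higher and the 9.72% that were lower by at least 1.2 fold. Most listed genes lay at or above the median level, where 10.7% of named probe sets were higher and 13.4% lower. Not every listed gene was named. For ER oxidation and folding 17 of 24 were, and for the unfolded protein response and ER degradation 24 of 35. For HSP90 co-chaperones it was 14 of 28, for mitochondrial import 23 of 29, for prefoldin 7 of 8 and for cyclophilins 16 of 16. Of 17 named genes on the list of ER oxidation and folding, 4 were higher and 0 lower, or 23.5% against 8.56% and 0% against 9.72%. This list also holds QSOX1, QSOX2 and TMED2, whose products are not confined to the ER, and QSOX2 is among the higher ones. Above 0 were 13 of the 17, and 6214 of all 14884 named genes, and the median was 0.13 against 0.00. ERO1A, the oxidase that reoxidizes protein disulfide isomerase, had a difference of 0.42, from 8.94 to 9.36. The membrane thioredoxins TMX3 and TMX1 had 0.34 and 0.31, the sulfhydryl oxidase QSOX2 had 0.31, and the largest negative difference was that of ERP29 at -0.26.

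Of 24 named genes of the unfolded protein response and of ER degradation, 3 were higher and 1 was lower, or 12.5% against 8.56% and 4.17% against 9.72%, with a median of 0.02. ERN1, the IRE1 sensor, had the largest positive difference, 0.70, from 5.17 to 5.87 at a mean level below the median. SEL1L, a subunit of the ER degradation ligase, had 0.39, and the transcription factor gene CREB3L2 had 0.28. The one that was lower was SESN2 at -0.74, a stress gene that ATF4 and p53 induce. XBP1, whose mRNA IRE1 splices, had exactly equal values of 9.40. ATF6 had 0.18, EIF2AK3 had 0.10, ATF4 had -0.04 and DDIT3 (CHOP) had 0.02, all within 1.2 fold. Levels of whole XBP1 mRNA do not show splicing.

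Of 14 named HSP90 co-chaperones and other heat shock genes, 2 were higher and 2 were lower, or 14.3% each way against 8.56% and 9.72%, with a median of 0.03. PPID, a cyclophilin that binds HSP90, had 0.44 and CDC37L1 had 0.33. HSBP1, which binds HSF1, had -0.30, and TOMM34, a co-chaperone that hands precursors of mitochondrial proteins to the import receptors, had -0.75, from 10.07 to 9.32. STIP1, the adaptor between HSP70 and HSP90, had 0.09.

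Of 23 named genes of mitochondrial import and proteolysis, 1 was higher and 2 were lower, or 4.35% against 8.56% and 8.70% against 9.72%, with a median of 0.01. TIMM10, a chaperone of the intermembrane space, had 0.43, and the protease gene OMA1 had -0.28. TOMM20, a receptor of the outer membrane, had -0.69, from 10.19 to 9.50. TRAP1, the mitochondrial HSP90, had 0.02, beside the small differences of HSPA9 and HSPD1.

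None of 7 named prefoldin genes, whose products deliver actin and tubulin to TRiC, passed 1.2 fold, and their median was 0.07. Of 16 named cyclophilin genes, which encode prolyl isomerases, 3 were higher and 1 was lower, or 18.8% against 8.56% and 6.25% against 9.72%, with a median of 0.11. PPIF, the mitochondrial cyclophilin, had -0.65, from 9.76 to 9.11, while PPID, PPIH and PPIL4 had 0.44, 0.36 and 0.29. PPID was counted with the HSP90 co-chaperones too, and PPIB, at 0.13, with the ER folding genes. No gene of these 6 lists passed 1.8 fold.

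**Figure D4:**
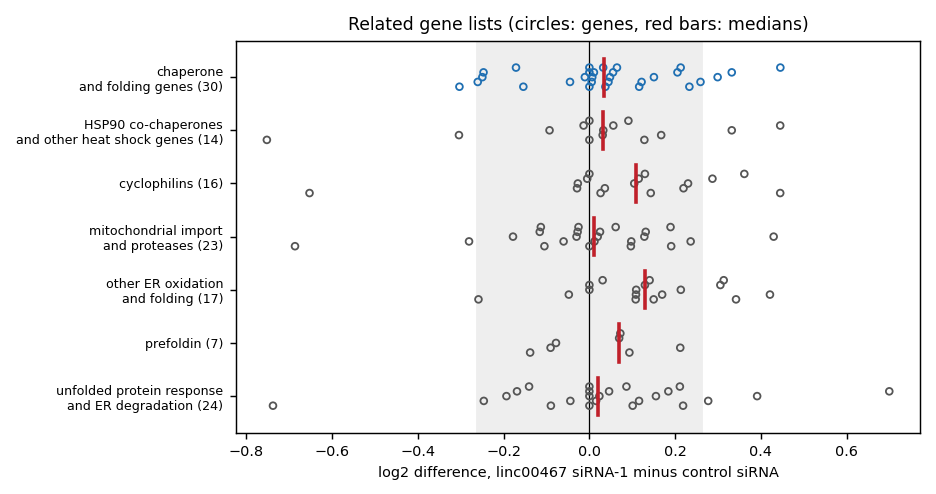
Log2 difference (x axis, linc00467 siRNA-1 minus control siRNA) of the 30 chaperone genes and of the genes of 6 related lists, with the number of genes in brackets. Circles are genes, red bars are medians and the grey band marks 1.2 fold. The chaperone genes lie between -0.30 and 0.45, and single genes of the related lists, such as TOMM34 at -0.75 and ERN1 at 0.70, lie further out.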

How the data were processed

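For each of 2 Affymetrix HuGene-2_0-st arrays the authors deposited a log2 value for every probe set. MAS5 is named in the submitters' processing notes, R with Bioconductor in the study's methods. Normalization, tool versions and genome build: not given in the sources used here. The log2 scale was inferred from the range of the values. Of 53617 probe sets, 16098 had 1 gene symbol in the platform annotation, and the other 37519 are unnamed here. All 16098 matched the RefSeq table of GRCh38.p14 by gene number, which gave chromosomes and gene types.

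Differences were computed from the levels as deposited, without a test, since there was 1 array per condition. The number of arrays limits the precision. The members, compartments and related lists were chosen with earlier results of these data known. Named genes were every member past 1.8 fold, the 4 largest differences of each sign per compartment at or above the median level, and a list of defining genes. All 30 members are nevertheless given. Of related genes, those past 1.2 fold and some pathway genes were named after their values had been seen.

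Alternatives were median centring, quantile normalization, a lowess correction with a fraction of 0.2, a floor at the median of silent gene families (3.67 and 3.74 on the control and knock-down arrays), omission of dim probe sets, 1 probe set per gene, omission of equal values, other folds and omission of HSF and BAG genes. Gene means, and omission of HSPA1A, HSPA1B and HSPA1L, were added after seeing the data. The counting code was checked on planted differences without noise, all well past 1.2 fold, which it had to recover. This check does not bear on real probe sets close to 1.2 fold. Protein sequences were not used here. Python 3.11.15, numpy 2.4.6, pandas 2.3.3, statsmodels 0.14.6 and matplotlib 3.10.9 were used.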

Additional observations from a re-analysis of the deposited data

How the results depend on the processing

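The count of higher chaperone probe sets was 3 and that of lower ones 1 as deposited. With quantile normalization 5 were higher, BAG2 and HSPA12A being added at 0.30 and 0.28, and 0 were lower, since HSPB1 had -0.24. The lower count was 2 with median centring, which added HSPB8 at -0.27, and 3 with the lowess correction, which added HSPB8 and HSPA4L, both at -0.27. A fold of 1.1 gave 9 higher and 9 lower, a fold of 1.5 gave 0 and 0, and a fold of 2 gave 0 and 0. None of the 44 passed 1.8 fold under any alternative that was run. All medians of members and compartments, and the differences between compartments, moved by less than 0.1 on the log2 scale. The ER median minus the cytosolic one was 0.11 with dim probe sets left out, with the highest probe set of a gene and with equal values left out, and 0.03 without HSPA1A, HSPA1B and HSPA1L. The mitochondrial median minus the cytosolic one fell below 0 with the lowess correction (-0.00049), with gene means (-0.0052) and without those HSPA1 genes (-0.012). Of 180 recomputed gene values, 179 moved by less than 0.1, and HSPA12A had 0.23 with its highest probe set against 0.12 as a mean. Many of these values could not move, so this count is no measure of stability. Gene means repeat the main value, and genes with 1 probe set have no other highest one. Median centring shifts all genes by the same amount, and the floor reaches only dim probe sets. Quantile normalization shifted the median of all named probe sets by 0.02. Leaving out J proteins changes nothing, since none was named. Without replicates no depth or error bounds these values. Probe sets below the median level lie closer to, or below, the median levels of the silent gene families. Their certainty was not tested.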
